A study of Rattus norvegicus with 6 samples.

Results

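Ldha and 9 further genes were followed through RNA-seq of 6 rat INS-1 lines. INS-1 is an insulinoma line that stands in for the pancreatic β-cell. The 10 genes, of 32900 features in the deposited tables, were Ldha, Ldhb, Slc16a1, Hk1, Acot7, Oat, Mgst1, Igfbp4, Smad3 and Pdgfra, picked by gene name. All but Ldhb belong to the disallowed genes, which most tissues express and the mature β-cell keeps silent or low, and Ldhb was added for comparison with Ldha. Values of these same lines were known when the genes were picked, so each member's level and difference between groups is a description without a test.

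The 3 control lines (5-9, 2 and 16) carried a CRISPR/Cas9 deletion of the Prader-Willi syndrome (PWS) imprinted domain on the maternal allele, which is silent, and kept the active paternal copy. The 3 PWS lines (3, 19-1 and 19-4) carried deletions on both alleles, and in line 3 the paternal deletion was larger, with another proximal breakpoint. All 6 lines shared the maternal deletion and the human INS and mouse Ins2-C-mCherry transgenes of the parental cells, and all were grown in 7.5 mM glucose, with 1 library per line. Lines 2, 16, 3 and 19 were isolated as clones from line 5-9. Lines 19-1 and 19-4 were both derived from line 19, which leaves 2 independent clones in the PWS group. The spread within a group is therefore a spread between related clonal lines.

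Disallowed genes are known from islets. Lactate dehydrogenase A turns pyruvate into lactate, and the monocarboxylate transporter MCT1, encoded by Slc16a1, carries pyruvate and lactate across the plasma membrane. With both low, pyruvate made from glucose enters the mitochondria, and pyruvate or lactate from the blood, which climbs during exercise, does not trigger insulin release. The high-affinity hexokinase 1, encoded by Hk1, is saturated at low glucose, and its silence keeps glycolysis responsive to the glucose concentration.

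The libraries held 26016478 to 36084261 read assignments, where a read counted for every feature it aligned to or overlapped. With reads of several alignments or features dropped, they held 17530149 to 23022637 reads. Values below are normalized counts, that is reads divided by a size factor for the library, and 1 read was worth 0.909 to 1.20 normalized counts. Where a gene had no read, a floor of 3 reads (2.73 to 3.59 normalized counts, depending on the library) was its upper limit, for counting error only. The deleted Snurf gene had 3160 to 3992 normalized counts in the control lines and 0 to 3.64 in the PWS lines, and all 15 housekeeping genes examined had at least 672 in every line. All 14 measured β-cell markers passed the filter on low values. Their summed level was 626611 to 677357 in the control lines and 349058 to 592253 in the PWS lines, where Ins1 and Iapp did not overlap between the groups, and its part in the members' values was not tested. Decorin, lumican, somatostatin, the leukocyte gene Ptprc and the endothelial gene Cdh5 had no read in any line. Further markers of other cell types were read. The exocrine and ductal markers summed to 146 to 1109 normalized counts in the control lines and 203 to 416 in the PWS lines. The alpha- and delta-cell markers summed to 2.75 to 26.6 and 21.4 to 125. Over all lines the stromal marker Thy1 had 1729 to 2575 and the immune marker Cd68 had 27.6 to 34.0.

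Control line 2 differed most from the other lines by these counts. It had the highest value of the 6 lines for 24.5% and the lowest for 23.4% of the 15579 tested genes, against 20.2% and 19.2% for line 19-1, 18.9% and 20.3% for line 19-4, and 9.47% to 14.6% for the other 3 lines. In line 2, 68 genes lay at least 2-fold above and 131 at least 2-fold below all 5 other lines, more than the 5 to 41 above and 31 to 52 below in each other line. Changes that moved by over 1.5 times when line 2 was left out are also given without it.

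Ldha was read in a single line. Control line 2 had 2793 normalized counts, and control lines 5-9 and 16 and PWS lines 3, 19-1 and 19-4 had 0 each. The line 2 value rested on 3043 reads, and the 5 other lines, with 157642589 read assignments among them, held none. Against the floor of each other line, line 2 was at least 779-fold to at least 1024-fold higher. The same line alone held Ldha in the RSEM table, with a value of 2462. It also did so in the table that drops multiply aligned reads, with 2137 reads. That table also drops reads over several features. Without line 2 both groups were at 0, so the difference between their means came from this line alone. In such bulk samples, a low level in all cells of line 2 cannot be told apart from a high level in some of them.

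The promoters of Ldha, of its sister gene Ldhb and of Slc16a1 are shown because the first was silent in 5 lines and the other two were read in all 6. They are RefSeq windows on build GRCr8, from 250 bases before to 50 after the gene start, written along the gene's strand. Capitals mark ACGTG on either strand, the core of the site bound by hypoxia-inducible factors, and TGACGTCA, the cAMP response element.
Ldha promoter, chr1:106507842-106508141, plus strand: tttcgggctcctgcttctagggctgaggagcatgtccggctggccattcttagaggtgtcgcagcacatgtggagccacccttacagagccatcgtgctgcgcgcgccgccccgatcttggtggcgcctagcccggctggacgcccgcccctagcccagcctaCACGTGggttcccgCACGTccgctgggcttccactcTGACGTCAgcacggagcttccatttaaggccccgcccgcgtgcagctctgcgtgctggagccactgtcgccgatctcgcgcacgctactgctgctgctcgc
Ldhb promoter, chr4:177177359-177177658, minus strand: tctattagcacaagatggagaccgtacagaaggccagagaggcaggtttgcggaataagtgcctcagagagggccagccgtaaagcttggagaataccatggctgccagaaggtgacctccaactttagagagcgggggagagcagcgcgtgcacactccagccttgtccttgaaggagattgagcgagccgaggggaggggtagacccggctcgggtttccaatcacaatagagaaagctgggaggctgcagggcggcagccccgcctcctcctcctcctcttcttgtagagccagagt
Slc16a1 promoter, chr2:194812410-194812709, plus strand: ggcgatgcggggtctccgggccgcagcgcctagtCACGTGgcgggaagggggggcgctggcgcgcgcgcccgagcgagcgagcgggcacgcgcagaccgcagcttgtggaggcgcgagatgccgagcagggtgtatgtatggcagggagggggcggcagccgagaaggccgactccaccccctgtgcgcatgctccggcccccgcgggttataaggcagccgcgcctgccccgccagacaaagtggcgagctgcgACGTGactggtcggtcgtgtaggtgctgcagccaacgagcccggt

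The Ldha window held CACGTG at position 164, a palindrome that contains ACGTG on both strands, a further CACGT at position 178 and TGACGTCA at position 200. Of 33469 such promoter windows, 19.3% held ACGTG on either strand, 6.42% held CACGTG and 1.83% held TGACGTCA. Slc16a1 also held CACGTG, at position 35, and ACGTG at position 256, whereas the Ldhb window held none of the 3 motifs. The Ldha window had 29 CpG dinucleotides and a GC content of 66.7%, and 11.5% of all windows had as many CpG. Slc16a1 had 39 CpG, Ldhb had 12, and the median window had 7. All 10 members had a window, and their CpG counts ran from 3 in the first of 2 Hk1 windows to 40 in the first of 2 Acot7 windows, with 5 in Pdgfra. Methylation and factor binding were not measured, so these matches are a description of the letters alone.

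**Figure D1:**
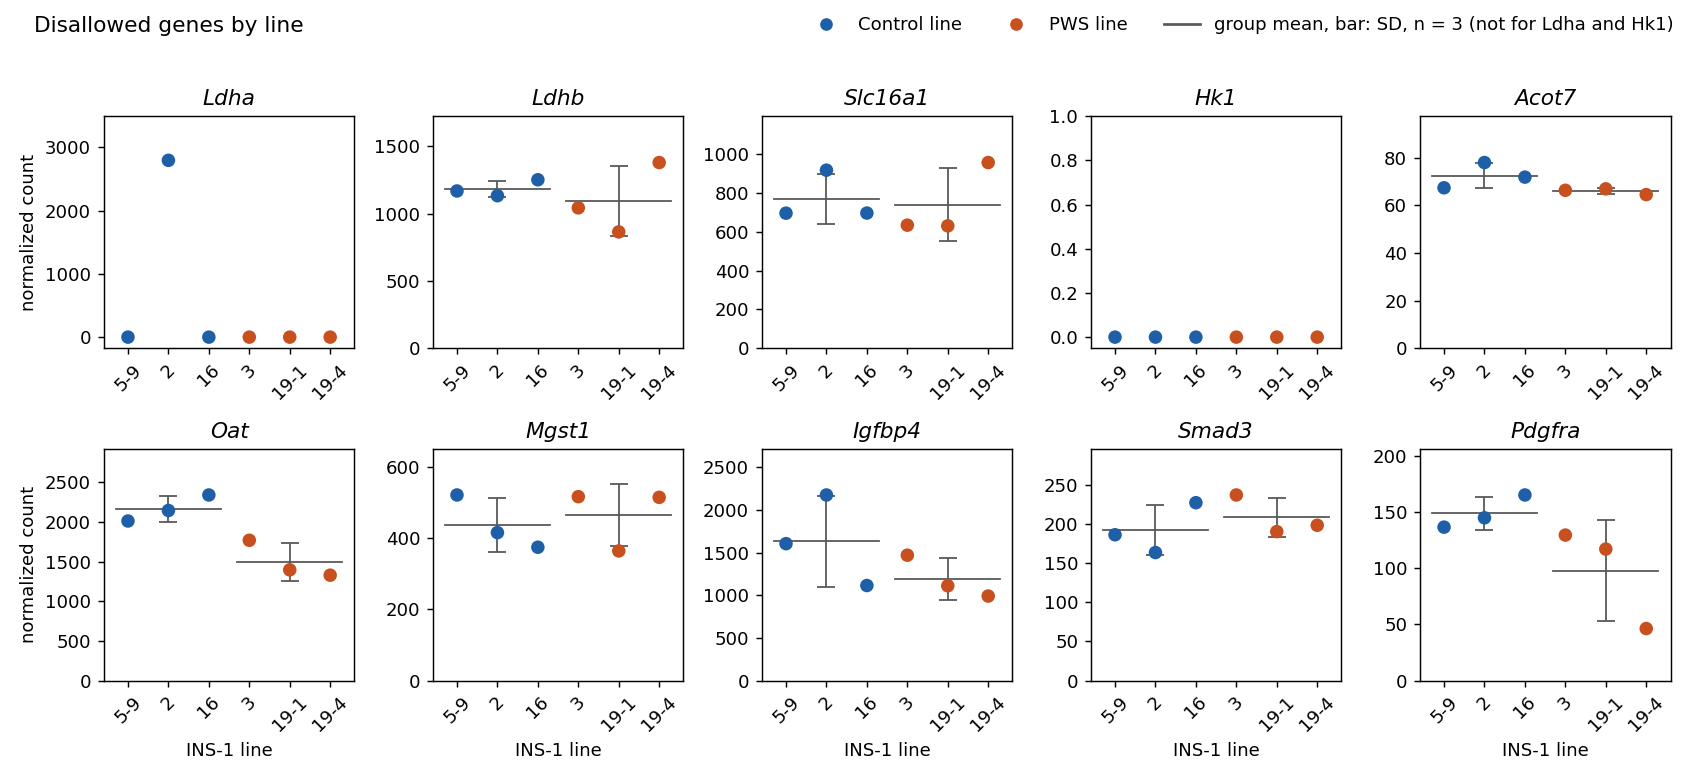
Normalized counts (vertical axes, from 0) of the 10 genes in each INS-1 line (horizontal axes). Points are lines, blue for control and orange for PWS, with the group mean and SD over 3 lines except for Ldha and Hk1. Ldha is at 2793 in control line 2 and at 0 elsewhere, Hk1 is at 0 throughout, and only Oat, Pdgfra and Acot7 have all PWS points below all control points.

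Among features with at least 10 reads in line 2, a further 4 had none in the 5 other lines. Of features with at least 10 reads in 1 line and at most 3 in each other line, line 2 held 9 and the other lines 0 to 5 each. At 100 reads or more only 3 were left, all in line 2, and these were Ldha, RGD1562690 with 499 reads and AC098459.1 with 139. AABR07043031.1, with 27 reads, and Ldhc, the testis form of lactate dehydrogenase, with 11 reads, completed the 5 with at least 10 reads here and none elsewhere. Much of this signal came from reads with several alignments or over several features. The share kept when these were dropped was 70.2% for Ldha, 22.0% for RGD1562690, 20.9% for AC098459.1, 45.5% for Ldhc and 0% for AABR07043031.1. RefSeq names 30 Ldha pseudogenes in the rat genome. Whether these features are separate transcripts was not tested, and they remain uncertain as such.

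Of the genes beside Ldha, examined after the values were seen, Ldhc had reads in line 2 alone and 3 others were read in all 6 lines. On the RefSeq gene order Gtf2h1 and Saa4 lie on 1 side and Ldhc and Tsg101 on the other. Gtf2h1, a subunit of the transcription factor TFIIH, had 1595 normalized counts in line 2 and 1543 to 1822 in the other lines. Tsg101, of the endosomal sorting machinery, had 1577 in line 2 and 1601 to 1726 elsewhere. Saa4 had 792 in line 2 and 622 to 781 elsewhere.

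**Figure D2:**
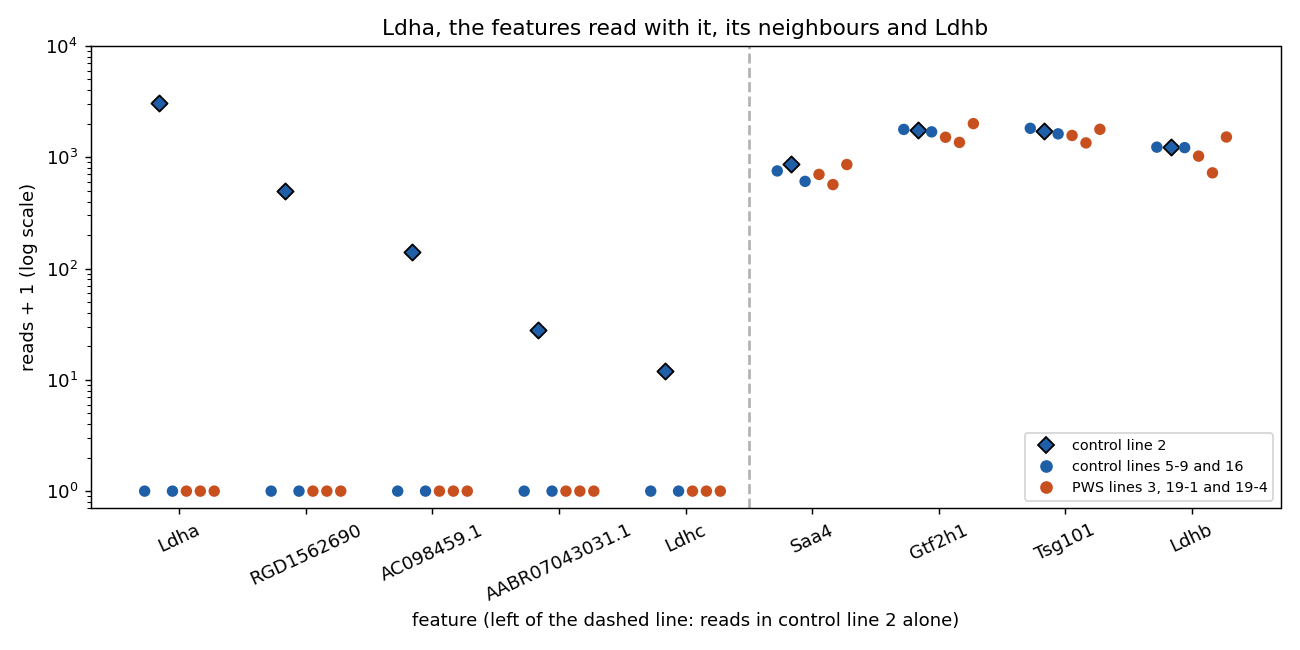
Reads plus 1 on a log scale (vertical axis) for Ldha, 4 features read in control line 2 alone, 3 neighbours of Ldha and Ldhb (horizontal axis). Diamonds are control line 2 and circles the other lines. The first 5 features are at 0 reads in the circles and at 11 to 3043 in the diamond, and the 4 to the right are read in all 6 lines, Ldhb with 723 to 1518 reads.

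The genes most like Ldha over the 6 lines were, by construction, those high in line 2. Of 15570 other tested genes, 510 had a Pearson correlation over 0.9 with Ldha on the log2(normalized count + 1) scale over 6 lines, and the highest of these are named here without a test. RGD1562690 and AC098459.1 had a correlation of 1.0. Akirin2, a nuclear protein that carries proteasomes into the nucleus, had 1963 normalized counts in line 2 and 1301 to 1344 in the other lines, with a correlation of 0.998. AABR07044364.1 kept 1.08% of its reads when those with several alignments or over several features were dropped. It had 175 in line 2 and 52.1 to 59.6 elsewhere, with a correlation of 0.996. Akirin2 was thus higher in line 2 by a far smaller step than Ldha.

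Ldhb, the form that prevails in oxidative tissues, was read in every line. Control lines 5-9, 2 and 16 stood at 1169, 1134 and 1252 normalized counts, and PWS lines 3, 19-1 and 19-4 at 1043, 865 and 1380. The groups overlapped, and the highest and the lowest of the 6 lines were the subclones 19-4 and 19-1. Their 1.60-fold difference was matched or exceeded by 8.73% of tested genes. The group means were 1185 ± 60.8 (SD, n = 3) and 1096 ± 262 (SD, n = 3), a log2 fold change of -0.14 with an SE of 0.15 for PWS minus control. Without line 19-1 the log2 fold change was 0.020, and without line 19-4 it was -0.32.

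In line 2, Ldha took 71.1% of the 4278 reads on Ldha and Ldhb together (Wilson 95% interval 69.8 to 72.5%). With multiply aligned reads dropped, the share was 63.4% of 3372 reads (61.7 to 65.0%). In the 5 other lines it was 0 of 723 to 1518 reads, with Wilson 95% upper limits of 0.252 to 0.529%. Line 2 had 1134 normalized counts of Ldhb, the lowest of the 3 control lines and inside the 865 to 1380 of the PWS lines. These are shares of reads and not of transcripts, because gene-model lengths were not used.

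Slc16a1 was also read in every line. Control lines 5-9, 2 and 16 stood at 697, 919 and 697 normalized counts, and PWS lines 3, 19-1 and 19-4 at 635, 631 and 958. The highest values were those of PWS line 19-4 and control line 2, 1 in each group, and the other 4 lines lay between 631 and 697. Means were 771 ± 128 and 742 ± 188 (SD, n = 3 each), and the log2 fold change of -0.07 (SE 0.18) turned to 0.06 without control line 2, to 0.03 without PWS line 3 and to 0.03 without PWS line 19-1. Without PWS line 19-4 it was -0.27, and without control line 5-9 or 16 it was -0.14. Subclones 19-4 and 19-1 differed 1.52-fold, which 10.7% of tested genes matched or exceeded. Activating changes in the promoter of the human gene cause exercise-induced hyperinsulinism, in which pyruvate triggers insulin secretion.

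The 5 genes whose levels over the 6 lines were most like those of Slc16a1 had correlations of 0.984 to 0.995, and 108 of 15570 genes had one over 0.9. They were AABR07024907.1, AC118414.1, Esrra, AABR07001942.1 and RGD1559903. Esrra, a nuclear receptor for genes of mitochondrial energy metabolism, had 999 normalized counts in control line 2 and 1020 in PWS line 19-4, against 920 to 954 in the other lines. The spread was thus narrower for Esrra than for Slc16a1. With reads of several alignments or features dropped, the first 2 of the 5 features kept 1.32% and 0%.

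Beyond the members, which carry no test, no gene of lactate production and monocarboxylate transport passed the test between the groups. In the fit across 15579 genes with limma, at a Benjamini-Hochberg adjusted p under 0.05, 40 genes (0.257%) passed, 1 higher and 39 lower in PWS. The 9 members in that fit, Ldha through line 2 alone, are counted only as a description, from which nothing is read. None was among the 40 and 1 (11.1%) had an unadjusted p under 0.05, beside 11.3% of all tested genes. By edgeR none and by DESeq2 1, Oat, was past the threshold, beside 0.205% and 1.46% of all tested genes. Of 7 further genes of this group 4 were tested, none passed in limma, edgeR or DESeq2, and 1 (25%) had an unadjusted p under 0.05, beside the same 11.3%. That gene, Slc16a7, encoding the pyruvate transporter MCT2, had 19.0, 21.1 and 33.9 normalized counts in the control lines and 14.3, 14.3 and 9.09 in the PWS lines, a log2 fold change of -0.90 (SE 0.33, limma adjusted p = 0.37). Emb, which guides monocarboxylate transporters to the membrane, had the largest positive change of this group at 0.09 (SE 0.13, limma adjusted p = 0.83). Ldhd, the D-lactate dehydrogenase, had 118 to 169 normalized counts and a log2 fold change of -0.20 (SE 0.16, limma adjusted p = 0.66). Slc16a3, encoding the lactate exporter MCT4 of glycolytic tissue, had 0 to 2.04, at or under the floor.

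Pyruvate entry into mitochondria and the NADH shuttles, the routes that take over when lactate is not formed, were read in every line except for Pdk4, a kinase that inhibits pyruvate dehydrogenase, which had no read in any. Of 10 tested genes of pyruvate entry none passed, and the changes ran from -0.24 for Mpc1 (SE 0.07, limma adjusted p = 0.28), a subunit of the mitochondrial pyruvate carrier, to 0.10 for the pyruvate kinase gene Pkm (SE 0.09, limma adjusted p = 0.70). Mpc1 had 2381, 2250 and 2282 normalized counts in the control lines and 2060, 1906 and 1903 in the PWS lines, which did not overlap. Pkm kept 50.8% of its reads when those with several alignments or over several features were dropped. Of 9 tested shuttle genes none passed, and the changes ran from -0.20 for the aspartate-glutamate carrier Slc25a13 (limma adjusted p = 0.55) to 0.38 for glycerol-3-phosphate dehydrogenase Gpd1 (limma adjusted p = 0.44). Gpd2, the mitochondrial partner of Gpd1, had 1959 to 3013 normalized counts in the 6 lines.

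Hk1 was not detected. It had 0 reads in all 6 lines, of 193726850 read assignments, and 0 in the 2 other tables. Unlike Ldha, it had no line with reads to show that its feature can take them, and this was not tested. Its neighbours differed, with 996 to 1063 normalized counts for Supv3l1 and 914 to 1145 for Vps26a on 1 side, and 17.4 to 46.8 for Tspan15 and a single read in all for Tacr2 on the other. Among the other hexokinases, Hk2 had 5.98 to 23.7 normalized counts and the largest negative change at -0.66 (SE 0.49, limma adjusted p = 0.65), and Hk3 had 0 to 1.84. None of 3 tested hexokinase genes passed.

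Of the members, 3 did not overlap between the groups, all lower in PWS, where 17.4% of all tested genes did not overlap and 9.01% did so in this direction. They were Oat, Pdgfra and Acot7. Since the members were picked with these values known, nothing is read from the count.

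Oat encodes ornithine aminotransferase, which links ornithine to glutamate and proline. For Oat, control lines 5-9, 2 and 16 gave 2011, 2143 and 2339 normalized counts, and PWS lines 3, 19-1 and 19-4 gave 1768, 1395 and 1328. PWS line 3 lay between the control lines and the subclones 19-1 and 19-4, which were alike within 1.05-fold. Counting error was small beside this, with exact Poisson 95% intervals of 1686 to 1853 in line 3 and 1926 to 2098 in line 5-9, the nearest lines of the groups. Means were 2164 ± 165 and 1497 ± 237 (SD, n = 3 each), and the log2 fold change of -0.54 (SE 0.12) stayed between -0.67 and -0.46 in 17 alternatives.

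Around Oat, 8 genes of ornithine and glutamate metabolism were tested and none passed, and 2 (25%) had an unadjusted p under 0.05, beside 11.3% of all tested genes. Pycr1, which makes proline, had the largest positive change at 0.42 (SE 0.17, limma adjusted p = 0.41), with 63.6, 65.2 and 63.7 normalized counts in the control lines and 94.9, 92.1 and 73.6 in the PWS lines.

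Acot7, a thioesterase that cleaves long-chain acyl-CoA, was low and even. It had 67.4, 78.0 and 71.9 normalized counts in the control lines and 66.4, 67.0 and 64.6 in PWS lines 3, 19-1 and 19-4. The groups were separated by less than 1 normalized count between control line 5-9 and PWS line 19-1. The exact Poisson 95% intervals of all 6 lines overlapped, from 50.4 to 81.4 in line 19-4 and from 62.3 to 96.5 in line 2. The log2 fold change was -0.13 (SE 0.16). Without control line 2 it was -0.08, and in the RSEM table, where the groups overlapped, it was -0.25. None of 5 tested acyl-CoA thioesterases passed. Their changes ran from -0.11 for Acot9 (limma adjusted p = 0.64) to 0.19 for Acot1 (limma adjusted p = 0.84). Acot1 kept no read when those with several alignments or over several features were dropped.

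Mgst1, a microsomal glutathione transferase against oxidized lipids, overlapped between the groups. It had 520, 415 and 374 normalized counts in the control lines and 516, 364 and 514 in PWS lines 3, 19-1 and 19-4. Lines 5-9, 3 and 19-4 lay close together at the top, and 19-1 and control line 16 at the bottom, so that subclones 19-1 and 19-4 differed 1.41-fold. The log2 fold change was 0.08 (SE 0.17). Leaving out control line 5-9, 2 or 16 gave 0.22, 0.06 or -0.02, leaving out PWS line 19-1 gave 0.25, and it was within 0.01 of 0 without PWS line 3 or 19-4. Its relative Mgst3 had 66.5 to 89.4 normalized counts and the only negative change among 3 tested genes of this family, at -0.01 (SE 0.18, limma adjusted p = 0.99). Gsta4, of the cytosolic transferases, had the largest change at 0.52 (SE 0.41, limma adjusted p = 0.67), with 77.1 in control line 2 and 148 to 320 in the other lines. Without line 2 its change was 0.05.

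**Figure D3:**
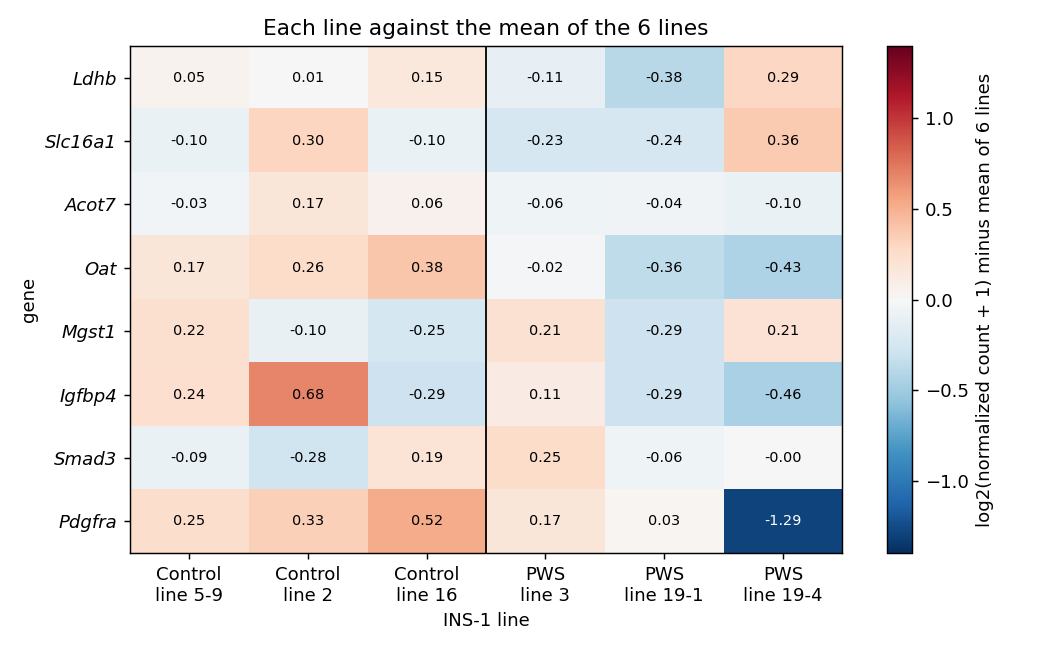
Log2(normalized count + 1) of 8 members in each line minus the mean of the 6 lines (color scale and printed numbers), with genes as rows and lines as columns, control lines to the left of the black line. The largest deviations are Pdgfra at -1.29 in PWS line 19-4 and Igfbp4 at 0.68 in control line 2, and lines 19-1 and 19-4 have opposite signs in Ldhb, Slc16a1, Mgst1 and Pdgfra.

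Igfbp4 encodes a secreted protein that binds insulin-like growth factors. It varied most within the control group, with 1606 normalized counts in line 5-9, 2177 in line 2 and 1115 in line 16, against 1471, 1112 and 992 in PWS lines 3, 19-1 and 19-4. Control line 16 lay with the PWS subclones and PWS line 3 with control line 5-9, so the groups overlapped. The coefficient of variation was 32.5% in the control lines and 20.9% in the PWS lines, where the median tested gene had 9.78% and 9.13%. The log2 fold change was -0.42 (SE 0.23), and leaving out control line 2 or 16 gave -0.19 or -0.67, the ends of its range over 17 alternatives.

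None of 10 tested genes of the IGF axis passed. Igfbp2 had no read in any line, and Igfbp5 had 120 to 263 normalized counts, with the highest in control line 2. Igf1 had the largest negative change at -1.04 (SE 0.77, limma adjusted p = 0.65), with 34.0 in control line 2 and 1.82 to 10.8 in the other lines. Without line 2 its change was -0.31. Igfbp7 had the largest positive change at 0.48 (SE 0.22, limma adjusted p = 0.46), with 310.5, 215 and 420 in the control lines and 455, 446 and 379 in the PWS lines. Without line 2 the change of Igfbp7 was 0.24.

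Smad3, a transcription factor that carries TGF-β signals to the nucleus and lowers insulin gene transcription, overlapped between the groups. It had 186, 163 and 227 normalized counts in the control lines and 237, 190 and 198 in the PWS lines. The log2 fold change was 0.12 (SE 0.16). Its lowest value was that of control line 2, and without that line the change was 0.01. Without PWS line 3 it was 0.03, and without control line 16 it was 0.25. Smad2, which acts beside it, had 1697 to 1936 normalized counts and a change of 0.06 (SE 0.07, limma adjusted p = 0.78). None of 11 tested genes of the TGF-β pathway passed, and Tgfbr2, the type II receptor, had no read in any line. The ligand Tgfb2 had the largest negative change at -1.17 (SE 0.36, limma adjusted p = 0.32), with 39.9, 61.5 and 111 in the control lines and 33.7, 23.9 and 28.2 in the PWS lines.

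Pdgfra encodes a receptor for platelet-derived growth factor that drives β-cell division early in life and is shut off with age. Control lines 5-9, 2 and 16 gave 137, 145 and 165 normalized counts, and PWS lines 3, 19-1 and 19-4 gave 130, 117 and 46.4. Line 19-4 alone stood clear of the rest, 2.53-fold below its sister subclone 19-1, a difference that 2.09% of tested genes matched or exceeded. The exact Poisson 95% interval was 34.5 to 61.0 in line 19-4, below all others, and 108 to 154 in line 3 overlapped 115 to 161 in line 5-9. Means were 149 ± 14.7 and 97.7 ± 44.9 (SD, n = 3 each), and the log2 fold change of -0.73 (SE 0.35) was -0.27 without line 19-4. The other receptor, Pdgfrb, had no read in any line. None of 3 tested ligands passed, from -0.19 for Pdgfa (limma adjusted p = 0.56) to 0.19 for Pdgfb (limma adjusted p = 0.79).

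Over the 9 tested members, 7 had a negative and 2 a positive log2 fold change, with a median of -0.14 beside -0.0028 for all 15579 tested genes. Ldha passed the filter through line 2 alone, and without it the median of the other 8 was -0.13. For 4 of the 8 members with reads in every line, the subclones 19-1 and 19-4 lay on opposite sides of the mean of the 6 lines on the log2(normalized count + 1) scale. The share of all tested genes that did so was not computed, so nothing is read from this count.

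A further 15 disallowed genes, listed apart from the 10, were examined between the groups, and 14 had a row. Of these 7 passed the filter on low values, none passed the test in limma, edgeR or DESeq2, and none had an unadjusted p under 0.05, where 11.3% of all tested genes did. None of the 7 was without overlap between the groups, beside 17.4% of all tested genes. The 7 had 4 positive and 3 negative changes, with a median of 0.08. The highest of the list by mean was C1qbp, a mitochondrial matrix protein, with 2350 to 2885 normalized counts, followed by Gas6, a ligand of TAM receptors, with 766 to 1021, and the transcriptional cofactor Lmo4 with 457 to 734. At the other end Arhgdib and Yap1, the effector of the Hippo pathway, had no read in any line, and Cd302 had a single read, in PWS line 19-4. In all, 5 of the 14 had at most 3 reads in every line.

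Tgm2, encoding tissue transglutaminase, had the largest positive change of this list at 1.24 (SE 0.73, limma adjusted p = 0.56). It had 296 normalized counts in control line 5-9, 32.1 in control line 2 and 267 in control line 16, and 347, 364 and 275 in the PWS lines. Line 2 was 8.31-fold below the nearest other line, and the remaining 5 lines lay between 267 and 364. Without line 2 its change was 0.21 (SE 0.15, limma adjusted p = 0.66). Cxcl12, a chemokine, came next at 0.77 (SE 0.36, limma adjusted p = 0.46), with 22.8, 30.3 and 19.5 in the control lines and 26.5, 68.2 and 39.1 in the PWS lines. Tst, a mitochondrial sulfurtransferase, had the largest negative change at -0.25 (SE 0.38, limma adjusted p = 0.84), and Lmo4 followed at -0.18 (SE 0.17, limma adjusted p = 0.72), with its highest value, 734, in control line 2. Without line 2 the change of Lmo4 was 0.02.

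**Figure D4:**
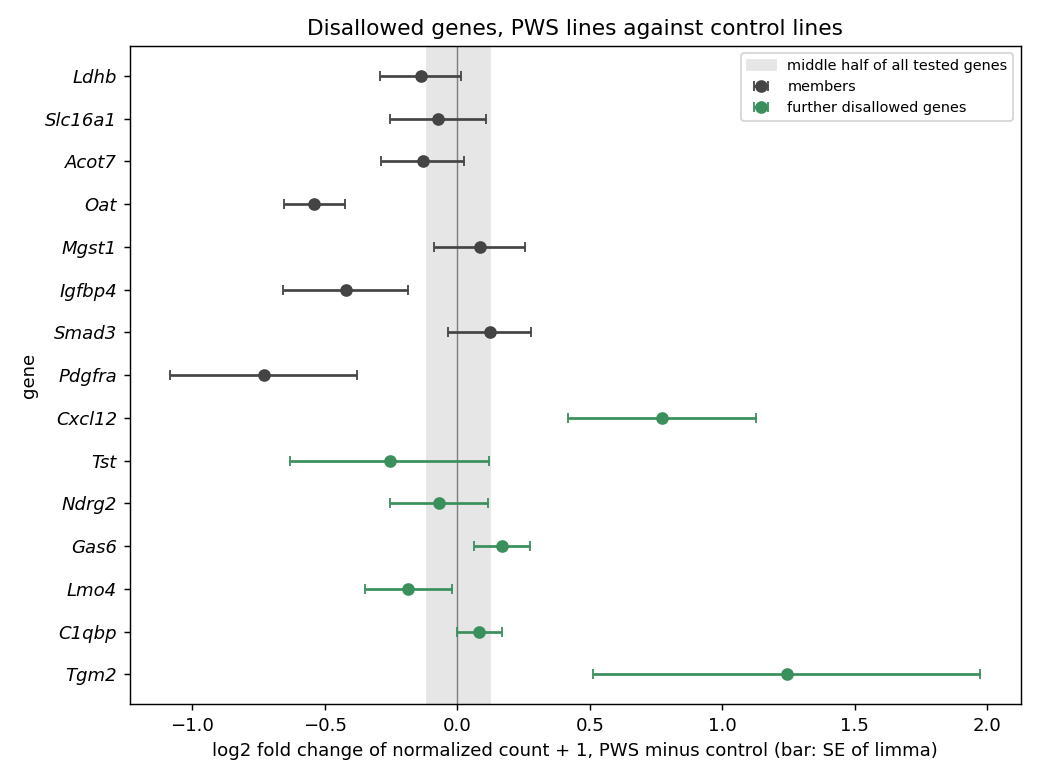
Log2 fold change of normalized count + 1 for PWS minus control (horizontal axis), with the SE from limma over 3 lines a group, for 8 members and 7 further disallowed genes (vertical axis). The grey band spans the middle 50% of all tested genes, from -0.11 to 0.12. Farthest from the band are Pdgfra at -0.73, Oat at -0.54 and Igfbp4 at -0.42 on the left and Tgm2 at 1.24 and Cxcl12 at 0.77 on the right, while Ldhb, Acot7, Tst and Lmo4 lie less far to its left and Gas6 to its right.

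Genes that keep disallowed genes silent, or could call them up, were read in all lines. Of 14 tested repressors and regulators none passed and 2 (14.3%) had an unadjusted p under 0.05, beside 11.3% of all tested genes. Dnmt3a, the DNA methyltransferase that acts at disallowed genes in the maturing β-cell, had 3021, 3350 and 3084 normalized counts in the control lines and 3116, 3765 and 3359 in the PWS lines, a change of 0.11 (SE 0.09, limma adjusted p = 0.66). Control line 2, with Ldha, lay inside the range of the other lines for Dnmt3a. It was the highest line for 5 and the lowest for 3 of the 14 genes, that is 35.7% and 21.4%, beside 24.5% and 23.4% of all tested genes. Uhrf1, which brings maintenance methylation to newly made DNA, had the largest negative change at -0.29 (SE 0.07, limma adjusted p = 0.28), with 3193, 3433 and 3088 in the control lines and 2805, 2620 and 2495 in the PWS lines. Epas1, a hypoxia-inducible factor, had the largest positive change at 0.29 (SE 0.26, limma adjusted p = 0.72), with its lowest value, 80.8, in control line 2. Without that line its change was 0.14. Over all 11 pathway lists 80 genes were tested and none passed in limma, edgeR or DESeq2. Of these 80, 10 (12.5%) had an unadjusted p under 0.05, beside 11.3% of all tested genes, and 12 (15%) did not overlap between the groups, beside 17.4% of all tested genes.

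Leaving out control line 2 moved further changes by over 1.5 times, none of them past the threshold of limma. These were Emb, to -0.03, Ldhd, to -0.32, Slc25a13, to -0.10, Gpd1, to 0.25, Hk2, to -1.0, Acot1, to 0.03, Mgst3, to -0.02, Pdgfb, to 0.06, and Tst, to -0.53.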

How the data were processed

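RNA of the 6 lines was sequenced as stranded, rRNA-depleted, paired-end libraries, which the authors trimmed, aligned with STAR and counted with HTSeq, with multiply aligned reads credited to every feature or dropped, and with RSEM. The deposited values are signal, normalized counts that the authors divided by size factors of DESeq2. Each value over the smallest positive value of its column gave whole reads (tolerance 0.01) for 100% of values in both HTSeq tables, but for 1.78% in the RSEM table.

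The table with every alignment was used. limma 3.58.1 was fitted to log2(normalized count + 1) of the 6 lines, leaving out genes whose mean was under 5, with Benjamini-Hochberg adjustment over 15579 genes at a threshold of 0.05. Fold changes on this scale understate changes of low genes. edgeR 4.0.16 and DESeq2 1.42.0 ran on recovered reads. All 3 were tested on simulated data. The members and gene lists were chosen with earlier results of these data known. The genes named are the members, fixed relatives, the extremes of each list and the 5 genes most like Ldha and Slc16a1, of which some are not reported here. List genes without a row were Itih5, Hkdc1, Insm1, G6pc2, Col1a2 and Pecam1. The share of Ldha was planned per base of gene model, but gene-model lengths were not used here. No 2 lines of a group agreed within sampling noise.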

Additional observations from a re-analysis of the deposited data

How the results depend on the processing

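Over all genes, limma passed 40 (1 higher), but 9 at a mean of at least 50, 16 with multiply aligned reads dropped, 12 in the RSEM table and 228 (106 higher) by DESeq2. With each line left out in turn the count was 33 to 55. Members past the threshold numbered 0 in limma and 1, Oat, by DESeq2, which gave Ldha no adjusted p, and 0 to 1 with each line left out, where the 1 was Oat without PWS line 3. The counts of further disallowed and pathway genes stayed at 0 in all 17 alternatives. The Ldha share of line 2 was 63.4% with multiply aligned reads dropped. Members without overlap, an alternative set added after the data were seen, numbered 3 in the main setting, beside 17.4% of all tested genes. They numbered 3 without control line 2, 2 in the RSEM table and 4, with Ldhb, when lines 19-1 and 19-4 were averaged. The share of all genes was not computed for these settings, and fewer lines separate more easily, so nothing is read from these counts. The replicate numbers shared by the groups gave correlations of 0.0035, 0.047 and 0.0051 between same-numbered lines, 4 of 6 lines correlated best with their own number, and a replicate block passed 36 genes, no member among them. Apart from the values given here and in the report, the cause of a shift was not tested. Of the members read in every line, Acot7 and Pdgfra had the fewest reads, with 418 and 739 over the 6 lines.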

Other observations

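Markers of other cell types, chosen for mention after their values were seen, varied between lines of both groups. Gcg, the glucagon gene, had 19.0, 0 and 13.4 in the control lines and 15.3 and 13.2 in PWS lines 3 and 19-1, and its highest value in line 19-4, the line with the least Pdgfra. Thy1, alone among the stromal markers in passing the filter on low values, had 2500 to 2575 in the control lines and 1729 to 2426 in the PWS lines (log2 fold change -0.28), without passing the test in limma. Their part in the members' values was not tested.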
